A study of Macaca mulatta with 27 samples.

Results

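Interferon-stimulated genes were followed across rhesus monkey pluripotent stem cells (PSCs) in the primed state and after 7 reprogramming protocols. The set holds 41 genes, chosen by name as genes that interferon is known to induce, and 41 of the 41 symbols were found among the 17967 gene symbols of the count tables. Reads were counted in 27 libraries, 6 of primed cells and 3 for each protocol (TL2i, TL-CDK8i, LCDM (EPS), t2iLGöY, E-NHSM, 4i/L/b and NHSM-v), and each protocol was set against the 6 primed libraries. The cells came from 1 clonal line of rhesus embryonic stem cells, LyonES-tGFP-(S3), which carries a tauGFP transgene under the ubiquitous CAG promoter and a lentiviral STAT3-ERT2, a STAT3 that tamoxifen activates. All groups, primed cells included, carry both transgenes. TL2i cells received tamoxifen and LIF together with inhibitors of MEK and GSK3β. TL-CDK8i cells received tamoxifen and LIF with an inhibitor of CDK8 and its paralog in place of those inhibitors, and the other 5 protocols used no tamoxifen and are known here by name only, since the sources used here do not list their agents. The labels call the reprogrammed cells naive. Primed colonies were passaged mechanically as clumps and reprogrammed cells after dissociation to single cells. Neither labels nor methods mention interferon treatment of the cells. Nothing in the labels says that the libraries of a group were separate cultures, and the p-values then measure the spread between these libraries only.

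Type I interferons bind a surface receptor made of IFNAR1 and IFNAR2, whose kinases JAK1 and TYK2 phosphorylate STAT2. Together with IRF9 it takes part in the ISGF3 complex, which enters the nucleus and switches on genes that degrade viral RNA, block viral entry, tag proteins with the ubiquitin-like ISG15 and load peptides onto MHC class I. Pluripotent stem cells are known to respond weakly to interferon and to keep some of these antiviral genes on without it, IFITM1 among them.

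Values are CPM, read counts scaled to the size of the library, after TMM adjustment over the 27 libraries and not divided by gene length, so levels are compared between groups and not between genes. A gene was called higher or lower when the edgeR quasi-likelihood test gave an adjusted p under 0.05 over all genes tested. Total counts per library ran from 7111886 to 20760914 with a median of 12201171, and 3 counts, taken as the floor of detection per library, correspond to 0.141 to 0.429 CPM. Genes with exactly 1 count numbered 44 to 206 in each of the 18 libraries of primed cells, E-NHSM, NHSM-v, t2iLGöY and LCDM (EPS), and 265 to 483 in each of the 9 libraries of 4i/L/b, TL2i and TL-CDK8i, and the part of this in the low-count results was not tested. As a check of the labels, mean POU5F1 was 1182 CPM in primed cells, 1366 in E-NHSM and 502 in TL-CDK8i, and 0.29 to 6.44 CPM in the means of the other 5 protocols. NANOG followed the same order, at 134, 169 and 74.0 CPM against at most 0.317 CPM. Both are defining markers of pluripotent cells and were called lower than in primed cells in 6 protocols, NANOG being at 0 counts in all libraries of NHSM-v and t2iLGöY, and cells are called here by the name of their protocol only. In bulk libraries fewer cells of a type and less RNA per cell cannot be told apart.

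Of the 41 genes, 34 had enough counts to be tested in at least 1 comparison with primed cells and 24 in all 7. The other 7, IFIH1, OASL, IFIT1, MX2, IFI44, IFI44L and XAF1, passed the filter in none. OASL was at 0 counts in all 27 libraries. Called changes reached 24 genes, of which 10 were only higher, 11 only lower and 3 changed in both directions. The remaining 17 genes, the 7 untested ones among them, were called in no comparison with primed cells. The share of all genes called in at least 1 comparison was not computed, so these counts are no result about the interferon-stimulated genes.

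The interferon-stimulated genes did not move as a block, and in each protocol some rose while others fell. In E-NHSM 6 genes were higher and 1 lower of 31 tested, 22.6% of those tested, beside 26.2% of all 13304 genes (11.1% higher and 15.1% lower). In NHSM-v 6 were higher and 11 lower of 26, or 65.4%, beside 58.6% of all genes (28% higher and 30.6% lower). In 4i/L/b 5 were higher and 11 lower of 28, or 57.1%, beside 55.6% (26.6% higher and 29% lower). The share called was thus near that of the transcriptome in these protocols.

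In TL2i 6 genes were higher and 9 lower of 28, or 53.6%, beside 50.7% of all genes (25.6% higher and 25.2% lower). In t2iLGöY 6 were higher and 12 lower of 29, or 62.1%, beside 54.3% (27.1% higher and 27.2% lower). In LCDM (EPS) 5 were higher and 12 lower of 29, or 58.6%, beside 57.1% (28.2% higher and 28.9% lower). In TL-CDK8i 5 were higher and 5 lower of 27, or 37%, beside 46.1% (22.3% higher and 23.8% lower). Since these shares lie close to the background, the number of changed genes is not a result about the interferon-stimulated genes, and the description turns on which genes moved and how far. The median log2 fold change over the genes tested was 0.45 in E-NHSM, −0.02 in TL-CDK8i, −0.05 in LCDM (EPS) and in 4i/L/b, −0.14 in TL2i, −0.41 in NHSM-v and −0.59 in t2iLGöY, beside −0.02 to 0.07 over all genes. The 7 comparisons share the 6 primed libraries and are not independent.

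**Figure D1:**
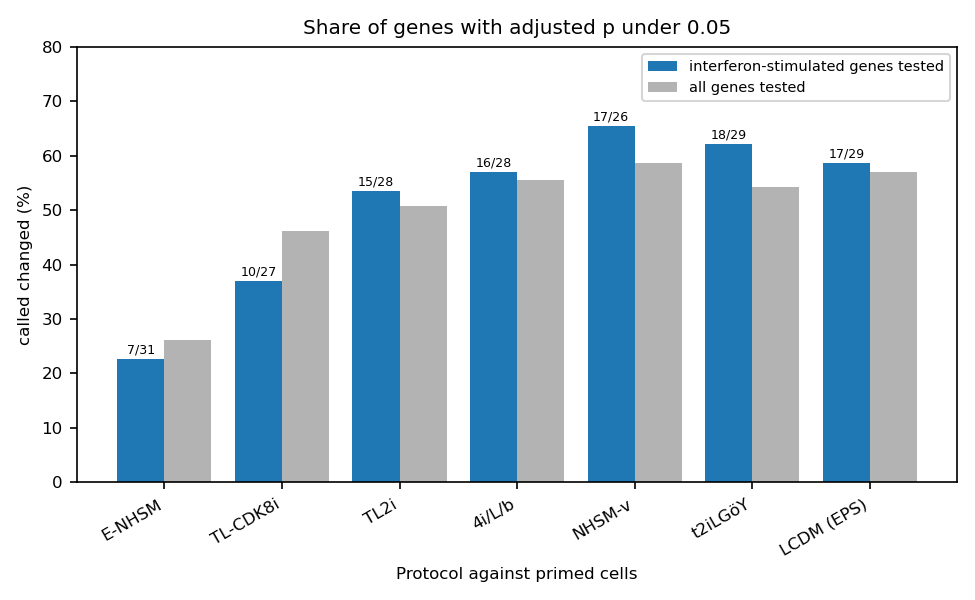
Share of genes called changed against primed cells in each protocol, in percent. Blue bars are the interferon-stimulated genes tested, with the number called over the number tested above each bar, and grey bars are all genes tested. The blue bars run from 22.6% in E-NHSM to 65.4% in NHSM-v and the grey bars from 26.2% to 58.6%, with the blue bar the lower of the pair in E-NHSM and TL-CDK8i.

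STAT2 was higher in all 7 protocols, IFI6 and TAP1 in 6 and TRIM25 in 5, which makes 4 genes higher in at least 5. Of the 12732 genes tested in all 7 comparisons, 13.5% were (6.32% in at least 6 and 0.785% in 7). STAT2, TAP1 and TRIM25 were among the 24 interferon-stimulated genes tested in all 7, while IFI6 was tested in 6. B2M was lower in all 7, IFITM1 and SAMHD1 in 6, and DHX58, OAS2, MX1, TRIM22, PARP9 and DTX3L in 5. This makes 9 of the 24 lower in at least 5, where 19.1% of the 12732 genes were (11.1% in at least 6 and 2.79% in 7).

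**Figure D2:**
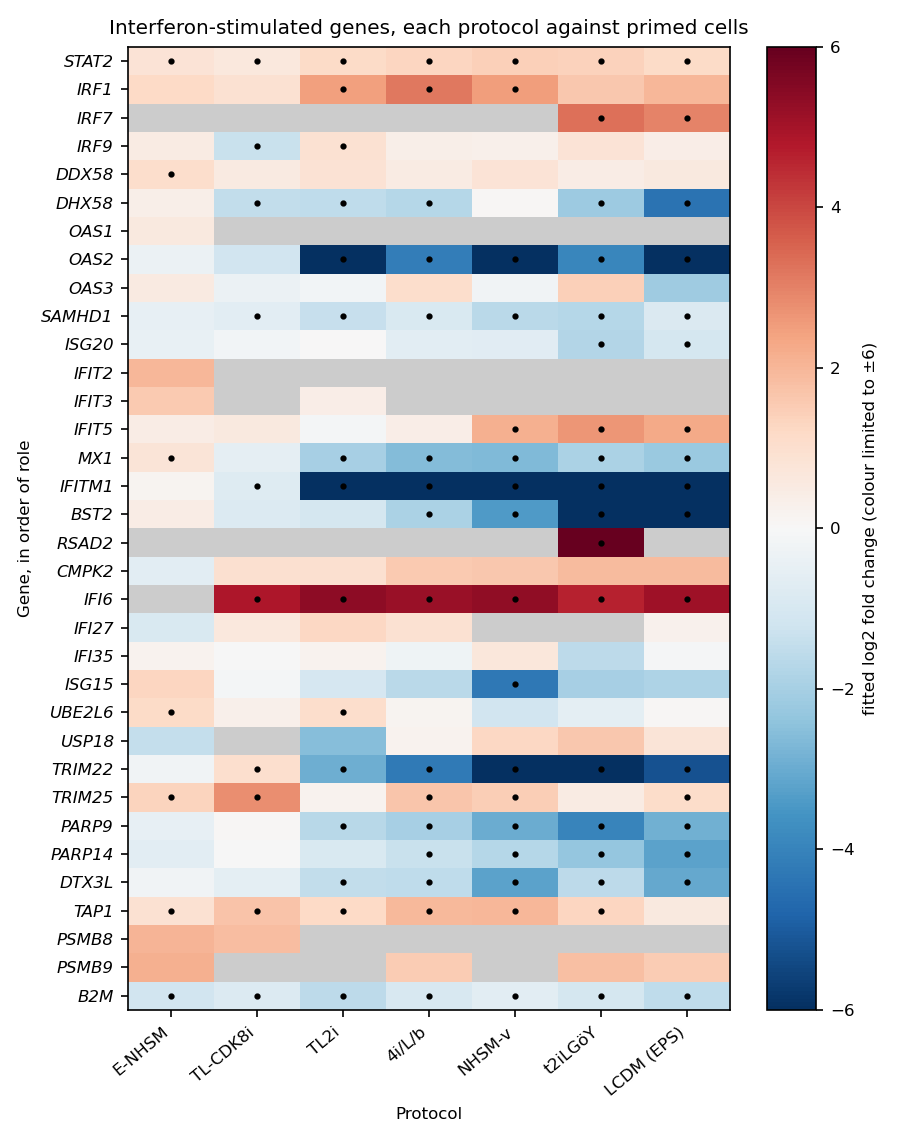
Fitted log2 fold change of the 34 tested interferon-stimulated genes (rows, ordered by role) in each protocol against primed cells (columns). Red is higher and blue lower than in primed cells, colour stops at 6 in either direction, a dot marks an adjusted p under 0.05 and grey a gene not tested, and where a group is at or under the floor the fitted value depends on the prior count and is no measure of size. STAT2 is red and dotted in all 7 columns and B2M blue and dotted in all 7, while IFITM1, OAS2, TRIM22 and DTX3L are blue and dotted in NHSM-v, LCDM (EPS), TL2i, t2iLGöY and 4i/L/b.

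The transcription factors of the pathway were higher or uncalled in 6 of the protocols, and STAT2, the subunit of ISGF3 that carries its activation domain, was the most regular of them. In primed cells STAT2 ran from 21.3 to 27.1 CPM with a median of 24.2. It was 42.5, 50.7 and 36.0 CPM in E-NHSM, 45.4, 35.8 and 35.3 in TL-CDK8i, 51.9, 60.1 and 51.3 in TL2i, and 61.1, 65.3 and 57.6 in 4i/L/b. It was 65.9, 66.8 and 68.6 CPM in NHSM-v, 60.9, 69.2 and 57.7 in t2iLGöY, and 47.0, 52.8 and 61.7 in LCDM (EPS). Every reprogrammed library lay above every primed library. On the log2 scale the change ran from 0.62 ± 0.16 (SE, adjusted p = 0.0046) in TL-CDK8i to 1.44 ± 0.14 (adjusted p = 4.2e-07) in NHSM-v.

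IRF9, the DNA-binding subunit of ISGF3, differed between the protocols that use tamoxifen. Primed cells had 4.86 to 28.2 CPM with a median of 22.3, the lowest value being that of library J3. TL2i had 34.7, 35.7 and 43.4 CPM and TL-CDK8i 11.7, 6.80 and 5.90. The mean was 38.0 CPM ± 4.8 (SD, n = 3) in TL2i and 8.13 ± 3.1 in TL-CDK8i, and between 25.3 and 34.7 CPM in the other 5 protocols. The TL2i libraries lay above all primed ones, and those of TL-CDK8i below all but library J3. IRF9 was called higher in TL2i (log2 fold change 0.92 ± 0.34, adjusted p = 0.036) and lower in TL-CDK8i (−1.35 ± 0.43, adjusted p = 0.018). Both calls depended on single libraries, since the first was lost in 6 of 9 fits that left out 1 library and the other in 2 of 9, without TL-CDK8i replicate 2 or 3.

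IRF1, a factor strongly induced by interferon-γ, was scarce in primed cells, at 0 to 2.28 CPM with a median of 0.948. It was 9.36, 3.19 and 6.43 CPM in NHSM-v, 7.11, 5.83 and 5.45 in TL2i, and 10.5, 9.24 and 11.3 in 4i/L/b. Each of these 9 libraries lay above the highest primed library. The log2 fold change was 3.18 ± 0.88 in 4i/L/b (adjusted p = 0.0071), 2.50 ± 1.01 in NHSM-v (adjusted p = 0.045) and 2.48 ± 0.95 in TL2i (adjusted p = 0.043). The calls in NHSM-v and TL2i were each lost in 5 of 9 fits without 1 library. IRF1 was 4.44, 4.05 and 4.55 CPM in LCDM (EPS), 1.30, 3.07 and 5.49 in t2iLGöY, 2.21, 2.78 and 2.42 in E-NHSM, and 1.06 to 2.9 in TL-CDK8i, and was not called there.

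IRF7, the factor that amplifies the type I response, stayed between 0 and 0.755 CPM in primed cells with a median of 0.0856. It was 3.14, 2.00 and 1.30 CPM in t2iLGöY and 1.02, 2.07 and 2.17 in LCDM (EPS). It was called higher in both (log2 fold changes 3.28 ± 1.28 and 2.98 ± 1.19, adjusted p = 0.042 and 0.047). Against primed cells it passed the filter on low counts only in these protocols, through their own libraries, where it is high. That it was called wherever it was tested is therefore no separate support for a rise. Each call was lost in 7 of 9 fits without 1 library, and without library J2 the values were 4.13 and 3.83. E-NHSM had 2.87, 1.84 and 0.754 CPM, where the gene was not tested, and the remaining groups held 0 to 1.85 CPM per library.

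Of the cytosolic RNA sensors, DHX58 fell in 5 protocols and DDX58 rose in 1. DHX58, the LGP2 helicase that modulates the other sensors, ran from 4.75 to 13.1 CPM in primed cells with a median of 7.66. It was 2.40, 2.43 and 3.18 CPM in 4i/L/b, 2.06, 2.85 and 3.96 in TL2i, 3.67, 3.68 and 2.22 in TL-CDK8i, 2.52, 1.87 and 1.08 in t2iLGöY, and 0, 0.849 and 0.271 in LCDM (EPS). All 15 of these libraries lay below the lowest primed library. Fitted log2 fold changes ran from −1.46 ± 0.45 in TL-CDK8i (adjusted p = 0.017) to −4.43 ± 0.84 in LCDM (EPS) (adjusted p = 0.00047), the latter −5.82 without LCDM (EPS) replicate 2. Leaving out TL2i replicate 1 or TL-CDK8i replicate 3 took the call from that protocol (highest adjusted p 0.065 and 0.089). DHX58 was 13.7, 8.84 and 10.2 CPM in E-NHSM and 7.56, 9.98 and 9.42 in NHSM-v, inside or just above the primed range, and was not called.

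DDX58, which encodes the sensor RIG-I, was 2.91 to 8.25 CPM in primed cells and 11.5, 12.5 and 9.74 in E-NHSM, all above the primed libraries. Its log2 fold change was 1.06 ± 0.37 there (adjusted p = 0.044), a call kept in only 2 of 9 fits without 1 library. The third sensor, IFIH1 (MDA5), held at most 2.23 CPM in any library and was not tested.

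Among the OAS genes, SAMHD1 and ISG20, the falls called in most protocols were those of OAS2, in 5, and SAMHD1, in 6. OAS2, an oligoadenylate synthetase that activates RNase L, ran from 0.770 to 8.74 CPM in primed cells with a median of 3.38. E-NHSM had 2.40, 4.23 and 3.44 CPM and TL-CDK8i 1.26, 1.34 and 3.19, within the primed range. The other 5 protocols held 0 to 0.795 CPM, with 0 in 11 of their 15 libraries, all 3 of TL2i and all 3 of LCDM (EPS) included. OAS2 was at least 12.5-fold lower in NHSM-v (adjusted p = 0.0005), at least 20.0-fold in TL2i (adjusted p = 0.00035) and at least 24.8-fold in LCDM (EPS) (adjusted p = 0.00026), bounds set by 3 counts per library. It was also called lower in 4i/L/b (adjusted p = 0.0044) and t2iLGöY (adjusted p = 0.023), the latter lost in 3 of 9 fits without 1 library. OAS1, a gene of the same cluster in RefSeq, was at 0 in all 15 libraries of the same 5 protocols and at 0 to 2.16 CPM in primed cells. Against primed cells it was tested in E-NHSM alone and not called. OAS3, the third gene of that cluster, was called in no comparison with primed cells, with values of 0.271 to 7.03 CPM per library.

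SAMHD1, which depletes the nucleotides needed for reverse transcription, ran from 24.4 to 44.3 CPM in primed cells with a median of 39.7. It was 29.4, 26.6 and 25.3 CPM in E-NHSM, 23.4, 24.6 and 28.3 in TL-CDK8i, 23.0, 19.8 and 19.3 in 4i/L/b, and 19.9, 22.1 and 20.6 in LCDM (EPS). It was lowest in TL2i (15.9, 14.2 and 13.2), NHSM-v (11.5, 13.6 and 12.7) and t2iLGöY (10.5, 12.9 and 10.5). In 5 protocols all libraries lay below the primed ones, whereas in E-NHSM and TL-CDK8i the ranges overlapped. On the log2 scale the change ran from −0.62 ± 0.19 (adjusted p = 0.014) in TL-CDK8i to −1.72 ± 0.22 (adjusted p = 1.2e-05) in t2iLGöY, and it was −0.49 ± 0.19 (adjusted p = 0.063) in E-NHSM. The call in TL-CDK8i was lost without its replicate 1 or 2. ISG20, an RNA exonuclease, was 8.52 to 20.7 CPM in primed cells and fell in t2iLGöY, to 4.30, 2.47 and 5.85 (−1.76 ± 0.41, adjusted p = 0.0021), and in LCDM (EPS), to 6.89, 7.92 and 6.12 (−1.05 ± 0.33, adjusted p = 0.014, lost without LCDM (EPS) replicate 1 or 3). All 6 of these libraries lay below the primed ones.

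The 4 IFIT genes, which bind viral RNA ends, lie in 1 cluster in RefSeq. IFIT5 was 0.782 to 5.71 CPM in primed cells with a median of 2.42. It was 7.67, 12.6 and 12.6 CPM in NHSM-v, 13.4, 14.8 and 17.1 in t2iLGöY, and 14.8, 9.52 and 11.4 in LCDM (EPS), each library above all primed ones. The log2 fold changes were 2.13 ± 0.56 (adjusted p = 0.0042), 2.64 ± 0.52 (adjusted p = 0.00057) and 2.28 ± 0.53 (adjusted p = 0.0021). In the other 4 protocols IFIT5 was 0.942 to 5.76 CPM and not called. IFIT1, IFIT2 and IFIT3 did not exceed 2.37 CPM in any of the 27 libraries. Against primed cells IFIT2 and IFIT3 were tested in E-NHSM, IFIT3 also in TL2i, and neither was called.

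IFITM1, a membrane protein that blocks the fusion of enveloped viruses, was called lower in 6 protocols. It ran from 358 to 443 CPM in primed cells with a median of 381. It was 432, 443 and 454 CPM in E-NHSM and 236, 192 and 278 in TL-CDK8i. In TL2i it was 1.62, 1.46 and 1.49 CPM, in LCDM (EPS) 0.683, 0.943 and 0.975, in t2iLGöY 2.18, 0 and 0.145, in NHSM-v 0, 0 and 0.264, and in 4i/L/b 0, 0.243 and 0.0963. The 15 libraries of these 5 protocols thus held at most 2.18 CPM where the other 12 held at least 192. IFITM1 was at least 1150-fold lower in NHSM-v (adjusted p = 1.6e-13) and at least 1067-fold in 4i/L/b (adjusted p = 6.3e-13). The log2 fold change was −7.99 ± 0.15 in TL2i (adjusted p = 1.1e-13), −8.91 ± 0.47 in t2iLGöY (adjusted p = 6.7e-10), −8.78 ± 0.16 in LCDM (EPS) (adjusted p = 8.1e-14) and −0.78 ± 0.12 in TL-CDK8i (adjusted p = 7.4e-05). In E-NHSM it was 0.18 ± 0.08 (adjusted p = 0.11). The value in t2iLGöY rests mostly on replicate 1, and was −12.22 without it. IFITM1 has close paralogs, its values rest on how reads shared with them were counted, and IFITM2 and IFITM3 were not found under those symbols in the tables. POU5F1 was likewise lowest in these 5 protocols, and its part in the result was not tested.

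**Figure D3:**
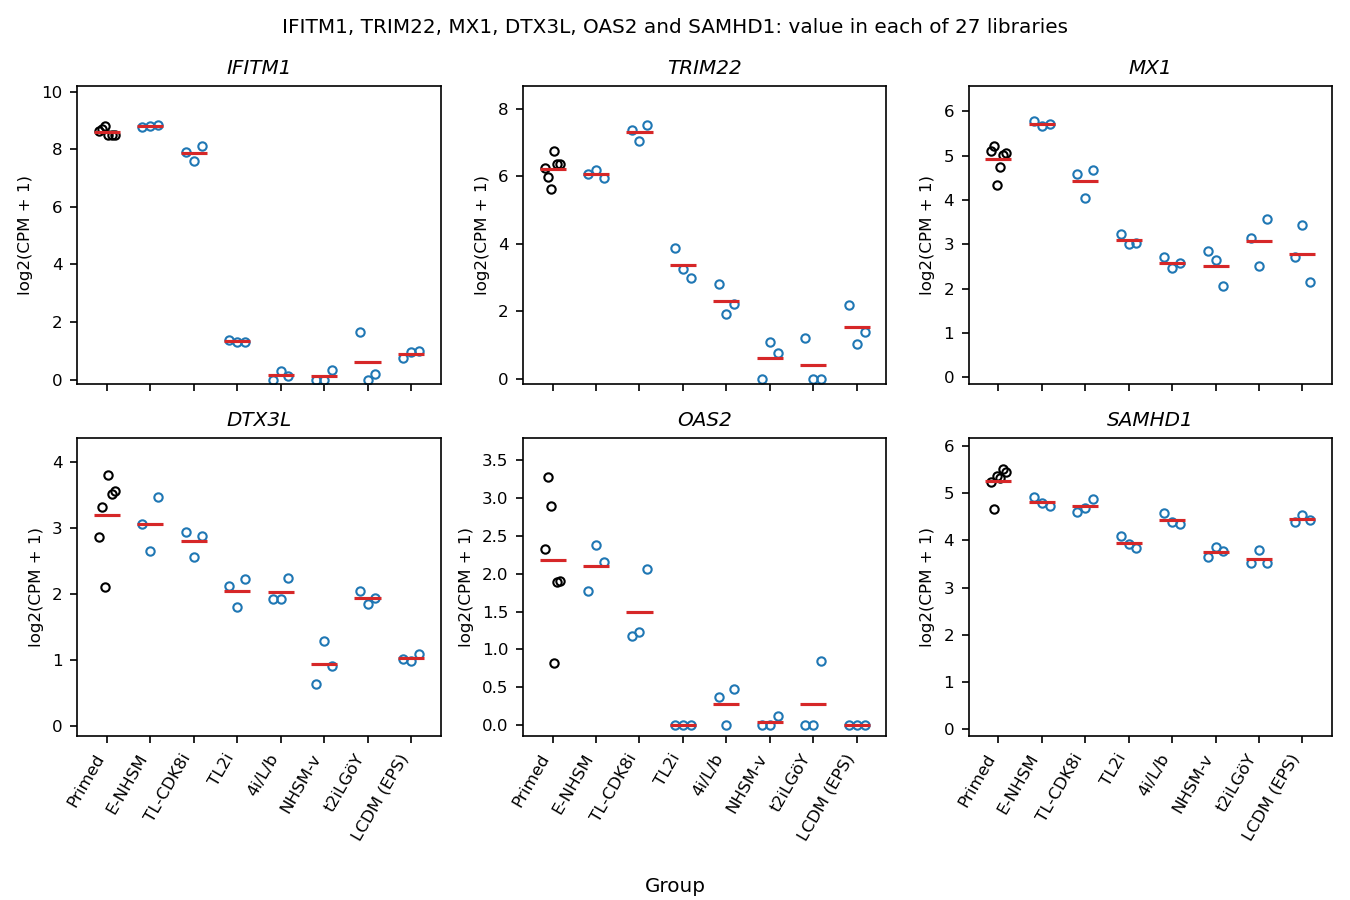
Level of IFITM1, TRIM22, MX1, DTX3L, OAS2 and SAMHD1 in each library on the scale log2(CPM + 1), by group. Open circles are libraries (black for the 6 primed, blue for 3 per protocol) and red lines the group means of the plotted values. IFITM1, TRIM22 and MX1 lie far lower in LCDM (EPS), t2iLGöY, TL2i, NHSM-v and 4i/L/b than in primed cells, E-NHSM and TL-CDK8i, whereas SAMHD1 falls by less and its TL-CDK8i libraries overlap the primed ones.

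MX1, a GTPase that traps viral nucleocapsids, rose in E-NHSM and fell in 5 protocols. It ran from 19.3 to 36.1 CPM in primed cells with a median of 32.0, and was 54.1, 49.5 and 51.2 CPM in E-NHSM and 22.8, 15.4 and 24.5 in TL-CDK8i. It was 8.43, 6.99 and 7.21 CPM in TL2i, 6.20, 5.25 and 3.17 in NHSM-v, 5.57, 4.50 and 5.01 in 4i/L/b, 7.85, 4.74 and 10.8 in t2iLGöY, and 5.58, 9.85 and 3.47 in LCDM (EPS). The E-NHSM libraries lay above all primed ones (log2 fold change 0.79 ± 0.18, adjusted p = 0.0027) and the other 15 below them (−1.90 ± 0.30 in t2iLGöY to −2.64 ± 0.29 in NHSM-v, adjusted p = 6.7e-05 and 1.6e-06). TL-CDK8i gave −0.56 ± 0.22 (adjusted p = 0.051). MX2, next to MX1 on the chromosome, was at 0 in all primed libraries and at most 1.98 CPM elsewhere.

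BST2, or tetherin, which holds budding virions at the cell surface, was 2.71 to 18.4 CPM in primed cells with a median of 14.3, library J3 again being the lowest. E-NHSM had 15.1, 17.6 and 19.2 CPM. TL-CDK8i had 6.54, 6.58 and 8.70 and TL2i 5.93, 6.35 and 5.94. 4i/L/b had 3.94, 2.43 and 3.95, NHSM-v 0.226, 2.26 and 1.06, LCDM (EPS) 0, 0 and 0.217, and t2iLGöY 0 in all 3. BST2 was called lower in NHSM-v (−3.41 ± 0.68, adjusted p = 0.0005), 4i/L/b (−1.90 ± 0.49, adjusted p = 0.005), t2iLGöY (at least 57.8-fold, adjusted p = 4.3e-06) and LCDM (EPS) (adjusted p = 1.2e-05). Without its replicate 2 the value in NHSM-v was −4.24. In TL2i and TL-CDK8i the adjusted p was 0.062 and 0.14, and both became called when library J3 was left out.

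RSAD2, or viperin, was at 0 in all 6 primed libraries. It was 1.23, 2.54 and 1.01 CPM in t2iLGöY, at least 3.71-fold higher than in primed cells (adjusted p = 0.0046). Against primed cells it passed the filter only there, through the t2iLGöY libraries, so the call adds no separate support to these values. LCDM (EPS) had 1.59, 0.236 and 1.35 CPM and TL-CDK8i 0.344, 0.334 and 1.74, where the gene was not tested. CMPK2, its neighbour, ran from 0 to 3.34 CPM in primed cells and up to 7.01 in the protocols and was called in no comparison with primed cells.

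IFI6, a small membrane protein induced by type I interferon, rose from near the floor in 6 protocols. Primed cells had 0 to 0.622 CPM with a median of 0.110, and E-NHSM 1.55, 0 and 1.35, where the gene was not tested. It was 5.62, 8.69 and 5.80 CPM in TL-CDK8i, 12.1, 6.23 and 9.41 in TL2i, and 12.4, 7.29 and 6.06 in 4i/L/b. It was 6.65, 9.16 and 11.4 in NHSM-v, 4.57, 7.14 and 4.05 in t2iLGöY, and 7.06, 9.48 and 6.06 in LCDM (EPS). All 18 of these libraries were above every primed library. With primed cells near the floor, IFI6 passed the filter through the protocol libraries, so being called in each test is no separate support. Fitted log2 fold changes ran from 4.61 ± 1.05 (adjusted p = 0.0017) in t2iLGöY to 5.35 ± 0.81 (adjusted p = 9.4e-05) in TL2i, and were 5.36 and 6.14 without primed library K2. The related IFI27 and IFI35 were at most 2.86 CPM in any library and were called in no comparison with primed cells. IFI44, IFI44L and the apoptosis factor XAF1, which were not tested, reached at most 0.902, 0.108 and 2.82 CPM.

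Of the ISG15 conjugation genes, ISG15 was called lower in 1 protocol and UBE2L6 higher in 2. ISG15 itself was 0.798 to 4.28 CPM in primed cells and 4.19, 3.84 and 6.78 in E-NHSM, which was not called (1.27 ± 0.68, adjusted p = 0.19). In NHSM-v it was 0, 0 and 0.264 CPM, at least 6.04-fold lower (adjusted p = 0.014, lost without NHSM-v replicate 1 or 2). UBE2L6, the conjugating enzyme of ISG15, was 3.24 to 9.05 CPM in primed cells with a median of 5.42. It was 15.6, 9.12 and 14.6 CPM in E-NHSM and 14.0, 9.85 and 13.1 in TL2i, all above the primed libraries (1.16 ± 0.35, adjusted p = 0.02, and 1.07 ± 0.34, adjusted p = 0.017). Each call was lost without replicate 1 or replicate 3 of its protocol. It was 7.11, 7.36 and 8.02 CPM in TL-CDK8i, 1.24, 3.40 and 3.43 in NHSM-v, 9.61, 4.38 and 6.06 in 4i/L/b, 5.94, 0.801 and 4.62 in t2iLGöY, and 5.75, 5.14 and 7.69 in LCDM (EPS). None of these 5 protocols was called. USP18, which removes ISG15, was at most 5.71 CPM in any library and was called in no comparison with primed cells.

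The antiviral ubiquitin ligases TRIM22 and TRIM25 were both higher in TL-CDK8i, while in NHSM-v, 4i/L/b and LCDM (EPS) TRIM22 was lower and TRIM25 higher. TRIM22 ran from 48.3 to 107 CPM in primed cells with a median of 78.4, and was 65.9, 71.5 and 60.7 CPM in E-NHSM. It was 166, 131 and 182 CPM in TL-CDK8i, above every primed library. TL2i had 13.7, 8.62 and 7.0 CPM, 4i/L/b 5.96, 2.80 and 3.66, LCDM (EPS) 3.59, 1.04 and 1.62, NHSM-v 0, 1.13 and 0.704, and t2iLGöY 1.30, 0 and 0. The rise in TL-CDK8i was 1.02 ± 0.19 on the log2 scale (adjusted p = 0.00045), and the falls ran from −2.95 ± 0.27 in TL2i (adjusted p = 9e-07) to −7.39 ± 0.61 in t2iLGöY (adjusted p = 1e-07). The last value rests on replicate 1, the only one of its 3 libraries with a count, and was −12.76 without it. It was −7.59 in NHSM-v without replicate 2 and −5.82 in LCDM (EPS) without replicate 1.

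TRIM25, which ubiquitinates RIG-I, was 3.08 to 7.04 CPM in primed cells with a median of 4.34. It was 31.2, 40.5 and 29.6 CPM in TL-CDK8i, 13.5, 12.1 and 14.3 in NHSM-v, 13.6, 16.4 and 16.4 in 4i/L/b, 11.8, 12.2 and 12.1 in E-NHSM, and 7.28, 10.4 and 12.8 in LCDM (EPS). All 15 libraries lay above the primed ones. The log2 fold change was 2.78 ± 0.26 in TL-CDK8i (adjusted p = 1.1e-06) and 1.11 ± 0.37 to 1.66 ± 0.32 in the other 4, the call in LCDM (EPS) being lost without its replicate 2 or 3. TL2i (4.56, 5.42 and 6.29 CPM) and t2iLGöY (6.34, 3.6 and 9.83) overlapped the primed range and were not called.

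PARP9 and DTX3L, which encode the partners of an ADP-ribosyltransferase and ubiquitin ligase complex and are adjacent on the chromosome, fell in the same 5 protocols. PARP9 ran from 6.15 to 12.5 CPM in primed cells with a median of 10.2, and was 7.54, 6.73 and 6.67 CPM in E-NHSM and 8.95, 7.36 and 15.1 in TL-CDK8i. It was 2.60, 3.79 and 2.62 CPM in TL2i, 1.24, 2.06 and 0.440 in NHSM-v, 2.59, 2.67 and 2.31 in 4i/L/b, 0, 0 and 1.81 in t2iLGöY, and 0.740, 1.04 and 2.11 in LCDM (EPS). The 15 libraries of these 5 protocols were all below the lowest primed library, with log2 fold changes from −1.68 ± 0.39 in TL2i (adjusted p = 0.0027) to −3.97 ± 1.03 in t2iLGöY (adjusted p = 0.0045). The value in t2iLGöY rests on replicate 3, the only one of the 3 with a count, and was −9.79 without it.

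DTX3L ran from 3.29 to 12.9 CPM in primed cells with a median of 9.70, and was 7.30, 5.28 and 10.01 CPM in E-NHSM and 6.65, 4.90 and 6.38 in TL-CDK8i. It was 3.33, 2.51 and 3.68 CPM in TL2i, 0.564, 1.44 and 0.880 in NHSM-v, 2.79, 2.80 and 3.75 in 4i/L/b, 3.14, 2.60 and 2.82 in t2iLGöY, and 1.02, 0.990 and 1.14 in LCDM (EPS). The ranges of TL2i and 4i/L/b overlapped the primed range through library J3, at 3.29 CPM. The log2 fold change was −1.47 ± 0.45 in TL2i (adjusted p = 0.014) and −3.20 ± 0.58 in NHSM-v (adjusted p = 0.00024), and leaving out TL2i replicate 2 or 4i/L/b replicate 1 took the call from that protocol. PARP14, a nearby gene for a mono-ADP-ribosyltransferase, was 3.81 to 12.8 CPM in primed cells and was called lower in 4i/L/b, t2iLGöY, NHSM-v and LCDM (EPS), at means of 2.96, 1.39, 2.23 and 0.770 CPM. The first 3 of these calls were each lost in 2 to 4 of 9 fits without 1 library.

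The antigen presentation genes TAP1 and B2M moved in opposite directions. TAP1, a subunit of the transporter that brings peptides into the endoplasmic reticulum, was 4.84 to 9.86 CPM in primed cells with a median of 6.39. It was 38.3, 19.7 and 25.1 CPM in NHSM-v, 28.1, 26.3 and 28.4 in 4i/L/b, 23.3, 21.4 and 25.7 in TL-CDK8i, 16.6, 16.9 and 15.4 in t2iLGöY, 15.8, 16.4 and 14.9 in TL2i, and 11.4, 16.7 and 11.2 in E-NHSM. These 18 libraries lay above all primed ones. The log2 fold change was 1.99 ± 0.29 in NHSM-v (adjusted p = 2.8e-05), 1.97 ± 0.25 in 4i/L/b (adjusted p = 1.3e-05) and 0.93 ± 0.32 in E-NHSM (adjusted p = 0.041), the last kept in 2 of 9 fits without 1 library. LCDM (EPS), at 10.9, 10.7 and 8.88 CPM, was not called (0.57 ± 0.32, adjusted p = 0.15).

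B2M, the light chain of MHC class I, was 328 to 389 CPM in primed cells with a median of 375. It was 257, 226 and 240 CPM in NHSM-v, 176, 197 and 262 in TL-CDK8i, 187, 202 and 187 in 4i/L/b, and 171, 175 and 177 in t2iLGöY. It was 153, 175 and 168 CPM in E-NHSM, 131, 139 and 113 in LCDM (EPS), and 139, 111 and 113 in TL2i. All 21 libraries were below the lowest primed library, and the log2 fold change ran from −0.62 ± 0.09 in NHSM-v (adjusted p = 1.8e-05) to −1.59 ± 0.10 in TL2i (adjusted p = 2.4e-08). The immunoproteasome subunits PSMB8 and PSMB9, on either side of TAP1 in RefSeq, were at most 2.00 and 2.27 CPM in any library and were called in no comparison with primed cells.

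**Figure D4:**
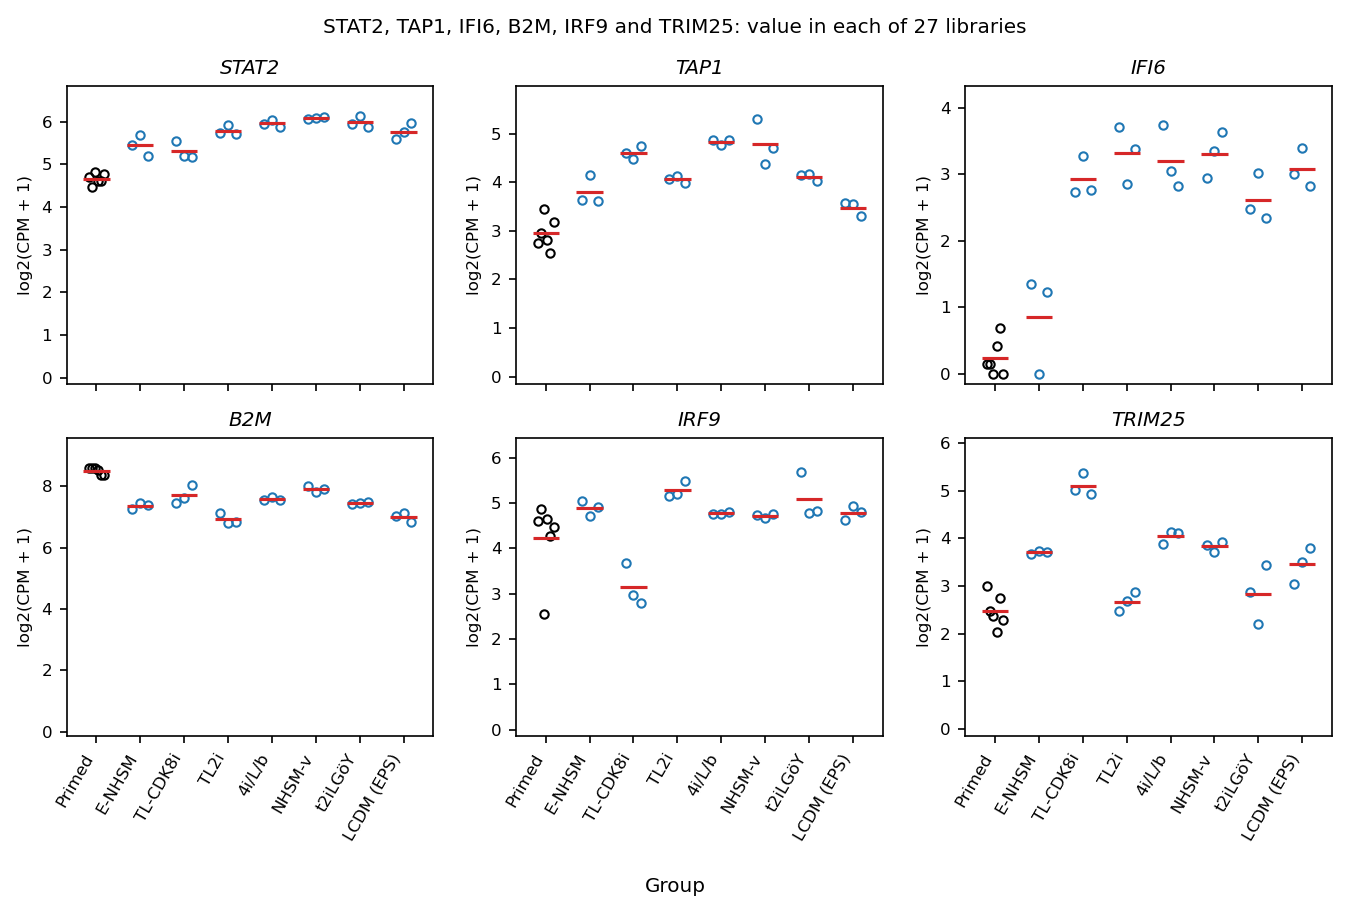
Level of STAT2, TAP1, IFI6, B2M, IRF9 and TRIM25 in each library on the scale log2(CPM + 1), by group, with open circles for libraries (black primed, blue protocols) and red lines for the group means of the plotted values. STAT2 is above and B2M below the 6 primed libraries in all 21 reprogrammed libraries, IRF9 is lowest in TL-CDK8i apart from 1 primed library at 4.86 CPM, and TRIM25 is highest in TL-CDK8i.

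TL-CDK8i and TL2i share tamoxifen-activated STAT3 and LIF and differ in the kinase inhibitors, so they were compared with each other. Of 27 genes tested, 12 were higher and 4 lower in TL-CDK8i, or 59.3%, beside 64.9% of all 13729 genes (31.5% higher and 33.3% lower). The median log2 fold change was 0.55 over the 27 genes and −0.04 over all genes. IFITM1 (7.23 ± 0.18, adjusted p = 4e-12), TRIM22 (3.98 ± 0.20, adjusted p = 1.7e-09), TRIM25 (2.61 ± 0.18, adjusted p = 3.8e-08), PARP9 (1.77 ± 0.30, adjusted p = 0.00016) and MX1 (1.44 ± 0.20, adjusted p = 2.6e-05) were higher in TL-CDK8i, and OAS2 was at least 9.10-fold higher (adjusted p = 7.8e-05). B2M, SAMHD1, TAP1, PARP14, DTX3L and PSMB8 were higher too, by 0.55 ± 0.14 for TAP1 to 2.16 ± 0.58 for PSMB8. The PSMB8 value rests on few reads, 9, 10 and 17 counts in TL-CDK8i and 6, 3 and 5 in TL2i.

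The 4 genes lower in TL-CDK8i than in TL2i included the 3 transcription factors tested. IRF9 fell most (−2.26 ± 0.22, adjusted p = 7.7e-07), followed by IRF1 (−1.58 ± 0.35, adjusted p = 0.0012), UBE2L6 (−0.74 ± 0.20, adjusted p = 0.005) and STAT2 (−0.52 ± 0.13, adjusted p = 0.0025). All 16 calls were kept in each of the 6 fits that left out 1 library. With all 8 groups in one fit, 10 genes were called, beside 3470 higher and 3165 lower of all 14752 genes. IFI6 was higher than in primed cells in both protocols and did not pass the test between them (−0.50 ± 0.27, adjusted p = 0.12).

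**Figure D5:**
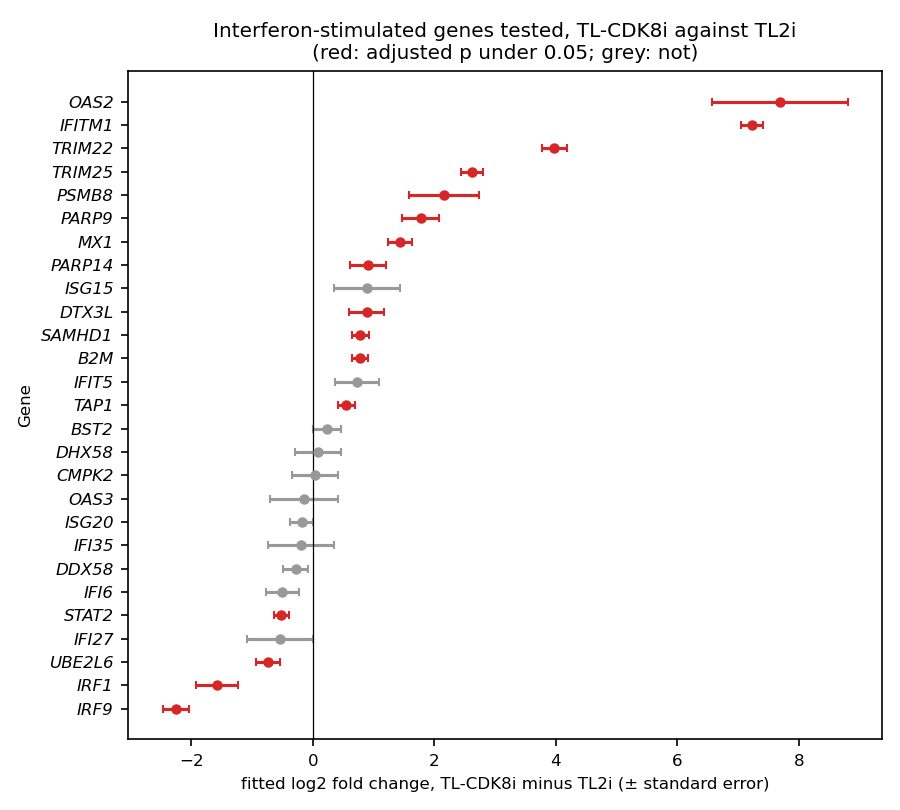
Fitted log2 fold change of the 27 interferon-stimulated genes tested between TL-CDK8i and TL2i (3 libraries each), with bars of 1 standard error. Red points have an adjusted p under 0.05, and positive values are higher in TL-CDK8i. OAS2, IFITM1, TRIM22 and TRIM25 lie farthest to the right and IRF9 and IRF1 farthest to the left, and the OAS2 point is a fitted value against 0 counts in all 3 TL2i libraries and no measure of size.

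Compared among the 7 protocols alone, 28 of 35 interferon-stimulated genes tested differed, or 80%, beside 90.9% of all 14699 genes tested. The primed columns carry the letters J and K, 3 libraries each, which the labels do not explain. Between them 0 of 25 genes were called, beside 3.73% of all genes (2.03% higher and 1.7% lower in K). At an unadjusted p under 0.05 edgeR gave 4 genes, B2M, IFITM1, OAS2 and TRIM22. No share of all genes was taken at that limit, so this count is no result about them. With DESeq2 1 gene, IFITM1, was called, beside 392 higher and 354 lower of all 12559 genes.

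The list of interferons held 9 symbols, with no interferon-α gene among them, and 6 were found in the tables. All 6 were at or under the floor in primed cells, E-NHSM and t2iLGöY, and IFNB1 did not exceed 2 counts in any library. IFNE, an interferon of epithelia, was at 0 in primed cells and had means of 12.1 CPM in 4i/L/b, 1.93 in TL-CDK8i and 1.69 in NHSM-v, at least 28.2, 4.50 and 3.95-fold higher (adjusted p = 1.3e-05, 0.003 and 0.0036). Against primed cells IFNE was tested only in these 3 protocols, passing the filter through their own libraries, so the calls add no separate support to the values. Among 9 receptor and kinase genes, 4 to 6 were called higher and 1 or 2 lower in each protocol other than E-NHSM, where 1 was higher. The share called was 11.1% in E-NHSM, beside 26.2% of all genes, and 55.6% in t2iLGöY, beside 54.3%. It was 66.7% to 88.9% in the other 5, beside 46.1% to 58.6%. IFNAR1 rose from a mean of 23.8 CPM to between 38.7 in TL2i and 71.6 in NHSM-v, and JAK1 from 65.9 CPM to between 90.9 in TL2i and 200 in NHSM-v, both in 6 protocols. IFNGR2, a chain of the interferon-γ receptor, rose in the same 6, from 6.59 CPM to 11.7 in TL2i and 34.9 in NHSM-v. The other chain, IFNGR1, was called lower in 4 of these 6 protocols (NHSM-v, 4i/L/b, TL2i and TL-CDK8i). IFNLR1, the receptor of the λ interferons, fell in these 6, from 15.3 CPM to 5.81 in TL-CDK8i and 0 in t2iLGöY (at least 70.7-fold, adjusted p = 1.7e-07).

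Of 22 genes that sense nucleic acids or relay the signal, 14 to 16 could be tested against primed cells in each protocol, and 28.6% to 66.7% were called, beside 26.2% to 58.6% of all genes. TBK1, the kinase that activates IRF3, was called lower in all 7 protocols, from a mean of 69.2 CPM to between 25.7 in t2iLGöY and 53.2 in TL-CDK8i. IKBKE, a related kinase, was lower in all but 4i/L/b, from 10.3 CPM to 0.352 in LCDM (EPS). The DNA sensor IFI16 was higher in 6, from 0.491 CPM to between 5.58 in LCDM (EPS) and 53.7 in TL-CDK8i, and TMEM173, which encodes STING, reached 22.0 CPM in NHSM-v from 0.154. Of 8 negative regulators, at most 2 were higher and 2 lower in any comparison with primed cells. The share called was 25% to 50%, beside 26.2% to 58.6% of all genes. With 8 genes a single call moves such a share widely, so it is no result about these regulators. CISH, a SOCS-family inhibitor, rose in 5 protocols and most in t2iLGöY, from 2.24 to 15.1 CPM. PTPN6, a phosphatase, fell in t2iLGöY, from 8.79 to 1.61 CPM (adjusted p = 0.019).

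A further list of 45 interferon-stimulated genes outside the 41 had 3 to 10 called higher and 1 to 13 lower of 30 to 33 tested, with 3 higher and 13 lower in LCDM (EPS) and 10 higher and 1 lower in TL-CDK8i. The share called was 32.3% in E-NHSM, beside 26.2% of all genes, 58.1% in t2iLGöY, beside 54.3%, and 33.3% to 51.6% in the other 5, beside 46.1% to 58.6%. PML, the organiser of nuclear bodies, was called higher in all 7 protocols, from 22.3 CPM to at most 53.4 (NHSM-v) and at least 32.6 (4i/L/b). TRIM5, which restricts retroviral capsids, was lower in 6 and not called in TL-CDK8i, with means of 79.4 CPM in primed cells, 96.5 in TL-CDK8i and 3.96 to 30.6 in the others. SAMD9L was lower in all but t2iLGöY, from 5.58 CPM to between 0.0379 in LCDM (EPS) and 1.36 in TL2i. The largest fitted values of the list were those of SLFN5, from 0.602 to 36.9 CPM in TL-CDK8i (adjusted p = 2.7e-05), and of EPSTI1, from 6.89 CPM to 0 in t2iLGöY. Bounded by 3 counts per library, EPSTI1 was at least 31.8-fold lower there and SAMD9L at least 32.7-fold lower in LCDM (EPS), so the fitted order is no order of size. Of 12 further antigen presentation genes, CALR and PDIA3, chaperones of MHC class I assembly, were lower in all 7 protocols. CALR had a mean of 1673 CPM in primed cells and 598 to 1333 in the protocols, and PDIA3 1218 and 349 to 981. ERAP2 was at 0 in primed cells and 6.56 CPM in 4i/L/b, at least 15.3-fold higher. CD74, the invariant chain of MHC class II, went from 1.73 CPM up to 8.16 in E-NHSM (adjusted p = 0.027) and down to 0.117 in LCDM (EPS) (adjusted p = 0.04).

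Marker genes of other cell types moved in the same comparisons. The 10 pluripotent cell markers summed to 5830 to 6967 CPM per primed library, 6881 to 6947 in E-NHSM, 2733 to 3493 in TL-CDK8i and 1289 to 1552 in TL2i, and to 227 to 601 in the other 4 protocols. All 10 were lower than in primed cells in TL-CDK8i, TL2i, 4i/L/b, NHSM-v and t2iLGöY, and 9 in LCDM (EPS). Fibroblast markers, also 10, summed to 1141 to 2415 CPM in primed cells, 408 to 453 in E-NHSM, 783 to 1012 in LCDM (EPS), 2976 to 5773 in TL2i, 3430 to 4039 in t2iLGöY, 7883 to 8419 in NHSM-v, 8730 to 11300 in TL-CDK8i and 11660 to 15150 in 4i/L/b. LUM, one of them, was at 0 in primed cells, E-NHSM and t2iLGöY and 46.7 CPM in 4i/L/b.

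Neural progenitor markers, 8 genes, summed to 2342 to 2701 CPM in primed cells, 1340 to 1469 in E-NHSM and 4370 to 4453 in LCDM (EPS), with 1945 to 3498 in the other protocols, and DCX rose in 7 of 7, from 2.46 to 853 CPM in LCDM (EPS). Endothelial markers, 6 genes, summed to 95.4 to 130 CPM in primed cells, 161 to 209 in TL-CDK8i and 16.3 to 84.7 in the others. The 10 immune cell markers summed to at most 10.7 CPM in any library, with 2 to 6 of them at or under the floor in each group. The 6 stress genes found, CDKN1A and FAS among them, summed to 55.7 to 91.3 CPM in primed cells, 282 to 342 in TL-CDK8i and 27.3 to 211 in the other protocols. The part of these cell types or states in the levels of the interferon-stimulated genes was not tested.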

How the data were processed

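Strand-specific mRNA libraries (27 in all, 6 of them primed and 3 from each of 7 protocols) were read from 1 end. What the authors deposited are raw counts per gene symbol, in 8 tables with 1 column per library. The submitters' processing notes name bcl2fastq, cutadapt, HISAT2 and HTSeq. The genome build and annotation are not given in the sources used here, and how reads shared by paralogs were treated is not stated. All columns were assigned by name and 0 were left over. Primed columns show the group only.

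The counts were analysed in R 4.3.3 with edgeR 4.0.16 (TMM, filterByExpr, quasi-likelihood test), each comparison on its own groups, two-sided, with Benjamini-Hochberg adjustment over all genes tested and a threshold of 0.05. DESeq2 1.42.0, other scalings and filters, a replicate block and leaving out each library were alternatives. The calculations were checked on simulated counts. Where all libraries of a group held 3 counts or fewer, fold changes are bounds. The filter was applied within each comparison, so a gene near the floor in 1 group passed it through the other group. Totals were 7111886 to 20760914. Each standard error was derived from the quasi-likelihood F value and the log2 fold change. The 41 genes matched 41 of 41 entries of RefSeq (T2T-MMU8v2.0), used for neighbours only.

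The members and lists were chosen with earlier results of these data known. Library values are given for genes called one way in at least 5 of 7 comparisons, the 2 largest rises and falls of each with a mean of at least 1 CPM, and STAT2, IRF1, IRF7 and IRF9. From other lists, genes called one way in at least 6 and the largest rise and fall are named. IFNGR1 is named besides, as the other receptor chain beside IFNGR2.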

Additional observations from a re-analysis of the deposited data

Results flagged for a closer look

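Of the 35 interferon-stimulated genes with any count in primed cells, 4 had a primed library that stood far above the other 5, by the size of its gap against the range of the group. In library J1, IFIH1 was 2.23 CPM (20 counts) where the others held 0 to 0.108, and IFIT2 was 1.12 CPM (10 counts) where the others held 0 to 0.346. In library J3, IFIT5 was 5.71 CPM where the others held 0.782 to 2.48. In library J2, PSMB9 was 2.05 CPM (19 counts) where the others held 0. The limit is one that chance passes in about 1 in 20 groups, a rate not tested for counts this low. The groups of 3 were not examined.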

How the results depend on the processing

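Fold changes of the named interferon-stimulated genes gave 121 values, and over 2020 alternatives 1920 kept their direction and side of the threshold, 72 lost the call, 28 gained one and 0 reversed. The number of genes called in E-NHSM was 7, and 11 against the K primed libraries only. Over all genes, 1476 were higher and 2010 lower of 13304 in E-NHSM, and 2181 and 2435 of 13129 against K only. Where no count over all genes is given below, the count is no result about the interferon-stimulated genes. Requiring an absolute log2 fold change of at least 1 gave 4 in E-NHSM, 6 in TL-CDK8i and 9 between TL-CDK8i and TL2i. Requiring at least 10 counts in every library, which tests fewer genes, gave 8 in NHSM-v, 9 in t2iLGöY, 10 in LCDM (EPS) and 11 among the 7 protocols. One fit of all 8 groups gave 10 between TL-CDK8i and TL2i, and the cause was not tested. Over all genes that fit called 3470 higher and 3165 lower of 14752, where the fit of the 2 groups called 4331 and 4575 of 13729. Between the K and J primed libraries 1 was called with DESeq2 (IFITM1), 1 with no filter and 1 with the replicate block (TRIM22 in both). Leaving out 1 library gave 4 to 8 in E-NHSM (4 without its replicate 1 or 3), 14 to 17 in NHSM-v, 14 to 16 in 4i/L/b, 12 to 16 in TL2i, 15 to 19 in t2iLGöY, 15 to 17 in LCDM (EPS), 8 to 12 in TL-CDK8i, 16 to 17 between TL-CDK8i and TL2i, 0 to 0 between K and J, and 27 to 30 among the protocols. The column numbers showed no pairing of protocol libraries with the primed libraries. The 21 same-number correlations ran from −0.0411 to 0.0174, and 4 of 21 libraries correlated best with their own number. Each was taken against the mean of the J and K libraries, so pairing between protocols, or with J or K alone, was not tested. The replicate block lost 2 calls of the named genes, TAP1 in E-NHSM (adjusted p = 0.056) and IRF1 in NHSM-v (adjusted p = 0.051), and changed no other call of them. Of the scalings, only 4i/L/b without a filter moved the median of all genes by over 0.1, by 0.133. At a few CPM a gene rests on few reads, and 3 counts limit what can be detected.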
